A study of Mus musculus with 36 samples.

Results

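Mitochondrial DNA codes for proteins of the respiratory chain and for the RNA of the mitochondrial ribosome. Described here are its 8 long transcripts that do not code for complex I. They were taken by name from the table of 56980 genes: mt-Cytb of complex III, mt-Co1, mt-Co2 and mt-Co3 of complex IV, mt-Atp6 and mt-Atp8 of complex V, and the ribosomal RNAs mt-Rnr1 and mt-Rnr2. All 8 were found, and all 8 were among the 25601 genes that passed the filter on low counts.

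The samples were 36 mouse brain RNA libraries. The mice either lacked Ndufs4 (KO), a nuclear gene for an accessory subunit of complex I whose loss gives a Leigh-like disease in mice, or were wild type (WT). They received vehicle or CP2, a small molecule that inhibits complex I, by gavage for 3 days. All mice were 37 to 45 days old. Titles also carry the letter F or M, whose meaning the labels do not give, so there were 8 groups: 5 samples each of WT vehicle F, WT CP2 F, KO vehicle F, KO CP2 F, WT CP2 M and KO CP2 M, and 3 samples each of WT vehicle M and KO vehicle M. The strain, the allele and the dose are not given in the sources used here, and the tissue is labelled brain while the design text names hippocampus and cortex. Samples are called by their group and the number in their title (L201, for example). That each number is a separate mouse is not stated, and p-values then measure only the spread between these samples.

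As background, both strands of mitochondrial DNA are transcribed from end to end into long precursors. The precursors are cut at the tRNAs that lie between most of the genes, and the mRNAs then receive short poly(A) tails. Each mRNA's level thus depends on its own stability as well as on shared transcription. Complex III passes electrons to cytochrome c, complex IV passes them on to oxygen, and complex V makes ATP. Brain is among the tissues that depend most on this chain.

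Libraries held 46124548 to 88559920 gene counts (median 54749040). Ndufs4 was detected in all of them. It stood at 34.4 ± 2.84 CPM in KO vehicle F against 53.4 ± 5.51 CPM in WT vehicle F (SD, n = 5 each). CPM is the count relative to the scaled library size, in the usual unit. The highest KO value of Ndufs4, 39.1 CPM in KO CP2 M, was just above its lowest WT value, 38.9 CPM in WT vehicle M. The KO and WT ranges thus overlapped. Which exons the counts came from is not shown by a table with 1 value per gene. Defining markers of neurons, astrocytes, oligodendrocytes and microglia were detected in every library. In KO CP2 M, library L266 stood apart: its chi-square per gene against the other 4 was 99.6 to 142, while those 4 differed among themselves by 22.4 to 49.3. KO CP2 F L233 stood apart for several of the 8 transcripts. Calls among the 8 for CP2 in KO and for KO against WT with CP2 are given with and without either library where it is included. Values of other genes are given with all samples.

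The 8 transcripts took 2.51% to 4.39% of a library's gene counts (median 3.19%), and all 15 long genes of mitochondrial DNA took 3.96% to 6.79%. Almost all of this came from mt-Co1, mt-Cytb, mt-Rnr1 and mt-Rnr2. mt-Co1 had 635518 to 1502001 counts, whereas mt-Atp8 had 62 to 342. For 62 counts an exact 95% Poisson interval, which covers counting error only, runs from 47.5 to 79.5. The 4 transcripts mt-Co2, mt-Co3, mt-Atp6 and mt-Atp8 together took only 0.00359% to 0.0147% of counts.

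Per kilobase of transcript the 8 genes fell into separate ranges. mt-Co1, which codes for the catalytic subunit of complex IV, had a mean of 11059 CPM per kilobase over the 36 samples. mt-Cytb, the only subunit of complex III that mitochondria make themselves, had 6191. mt-Rnr1 and mt-Rnr2, the RNAs of the small and the large mitochondrial ribosomal subunit, had 3129 and 2939. Both are values of the ribosomal RNA captured in libraries of polyadenylated RNA. How large a part of it this was cannot be seen from the counts, so they cannot be ranked against the mRNAs as levels in the tissue. mt-Co2, which binds cytochrome c, had 26.3 CPM per kilobase, mt-Co3, a core subunit of complex IV, had 24.0, mt-Atp6, part of the proton channel of complex V, had 23.1, and mt-Atp8, its small partner, had 14.2. The lowest of the abundant genes, mt-Rnr2, thus had 112-fold more CPM per kilobase than the highest of the others, mt-Co2. mt-Co1 was 420-fold above mt-Co2, although both code for complex IV. Reads of mt-Co2 have more than 1 place to align, as described below, so neither value compares levels in the tissue. In complex I, mt-Nd3 (44.2) and mt-Nd4l (13.7) were low too, while its other 5 mRNAs lay between 2138 and 5777.

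**Figure D1:**
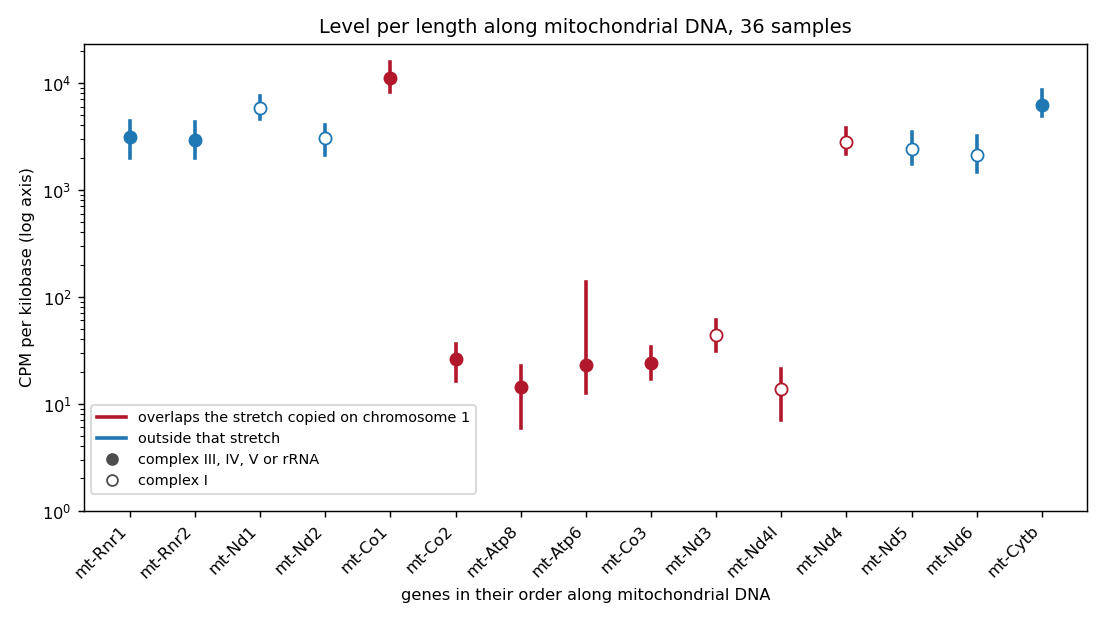
Level of the 15 long mitochondrial genes in CPM per kilobase of transcript on a log axis, in their order along mitochondrial DNA. Points are means and lines run from the lowest to the highest of 36 samples; the 6 genes between 13.7 and 44.2 are neighbours inside the stretch copied on chromosome 1. Red marks genes that overlap this stretch, which for mt-Co1 and mt-Nd4 is only part of the gene.

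The 6 genes with low counts lie next to each other, in a stretch that the reference genome holds a second time. Positions are given on GRCm38, the build of the reference used here, while the authors counted on GRCm39. On the plus strand of mitochondrial DNA, mt-Rnr1 (ENSMUSG00000064337) spans positions 70 to 1024, mt-Rnr2 (ENSMUSG00000064339) 1094 to 2675, mt-Co1 (ENSMUSG00000064351) 5328 to 6872 and mt-Co2 (ENSMUSG00000064354) 7013 to 7696. They are followed by mt-Atp8 (ENSMUSG00000064356) at 7766 to 7969, mt-Atp6 (ENSMUSG00000064357) at 7927 to 8607, mt-Co3 (ENSMUSG00000064358) at 8607 to 9390 and, after the rest of the complex I genes, mt-Cytb (ENSMUSG00000064370) at 14145 to 15288. None of these genes has an intron. On the minus strand of chromosome 1, annotated copies of 7 mitochondrial genes stand in the same order between 24611535 and 24616188. That is 4654 bases for the 4653 bases from 6390 to 11042 of mitochondrial DNA, and the gaps between genes are the same to within 1 base.

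The copies are close to exact. A BLAST search of the annotated transcripts (alignments of at least 100 bases and 80% identity) gave 100% identity between mt-Co2 and Gm28661 over 681 of 684 bases. The same identity was found between mt-Atp6 and Gm10925 over 678 of 681 bases, and between mt-Co3 and Gm28437 over 783 of 784 bases. mt-Atp8 has no annotated copy above 81.4% identity, but it lies in the gap between mt-Co2 and mt-Atp6, and that gap has the same length on chromosome 1. mt-Co1 is copied there as Gm29216 over its last 483 bases, with the single substitution A1066T (the base of mt-Co1, its position from the gene's start, the base of the copy), and it has a whole copy on chromosome 2, Gm13340, at 97.6% identity. The best match of mt-Cytb was 92.9%, that of mt-Rnr2 was 88.5% over 435 bases, and mt-Rnr1 had none.

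The start of the chromosome 1 copy within mt-Co1 is shown because the near-exact copy begins there, within a gene that is also copied, less exactly, on chromosome 2. Capitals are bases that are the same in mt-Co1 and in Gm29216 inside the alignment, and the lower-case bases before the capitals lie outside it. Both run 5′ to 3′, mt-Co1 from base 1033 to base 1112 and Gm29216 from base 1 to base 59.
mt-Co1: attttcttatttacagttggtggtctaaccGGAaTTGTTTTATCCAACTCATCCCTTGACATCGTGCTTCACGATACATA
Gm29216: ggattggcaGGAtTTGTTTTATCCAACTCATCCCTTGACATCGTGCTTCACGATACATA

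The complex V genes share bases with each other. The last 43 bases of mt-Atp8 are the first 43 of mt-Atp6, read in another frame, and both proteins come from 1 mRNA. A read from these bases belongs to both genes. Capitals mark the shared bases in the last 63 bases of mt-Atp8 and the first 63 of mt-Atp6.
mt-Atp8: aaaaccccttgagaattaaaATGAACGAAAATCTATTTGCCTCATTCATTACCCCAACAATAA
mt-Atp6: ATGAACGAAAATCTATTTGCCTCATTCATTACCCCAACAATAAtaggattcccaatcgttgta

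The libraries were made from polyadenylated RNA, and the annotated last 30 bases of the 6 protein-coding genes are shown for that reason. mt-Atp8 ends at position 7969, inside mt-Atp6 (7927 to 8607), with which it shares its mRNA. Its end is therefore not the end of that mRNA. Where each tail starts cannot be seen from counts per gene. Capitals mark the last codon, or the base left of it. mt-Cytb and mt-Co3 end in a single T, and in such mRNAs the poly(A) tail is known to complete the stop codon. The other 4 end in a whole stop codon. Whether the 3′ end had a part in the levels was not tested.
mt-Co1: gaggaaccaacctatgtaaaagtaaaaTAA
mt-Cytb: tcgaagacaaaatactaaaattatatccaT
mt-Co3: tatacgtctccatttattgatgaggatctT
mt-Co2: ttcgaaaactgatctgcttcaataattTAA
mt-Atp8: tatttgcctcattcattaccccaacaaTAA
mt-Atp6: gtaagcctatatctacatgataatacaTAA

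Reads of the repeated stretch have more than 1 place to align, and the count table kept reads with several alignments apart from the gene counts. They were 4.05% to 5.91% of reads. The counts that remained were compared between gene and copy. The ratio of mt-Co2 to Gm28661 was 0.945 ± 0.0763 (SD, n = 36; range 0.767 to 1.10), and that of mt-Co3 to Gm28437 was 1.37 ± 0.147 (range 1.04 to 1.79). The ratio of mt-Atp6 to Gm10925 was 0.625 to 1.05 in 35 libraries and 3.95 in KO CP2 F L233. The complex I genes of the stretch were less even, with mt-Nd3 at 15.4 CPM against 1.42 CPM for its copy Gm28438 and mt-Nd4l at 4.08 CPM against 1.92 CPM for Gm10222. The levels of mt-Co2, mt-Co3, mt-Atp6 and mt-Atp8 therefore cannot be compared with those of the other members, and their changes are less certain. How many of their reads were set aside was not tested.

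In KO mice of the M groups, both mitochondrial ribosomal RNAs and the mt-Cytb mRNA were higher with CP2 than with vehicle. For the ribosomal RNAs this covers the part captured in libraries of polyadenylated RNA. Whether the captured share itself changed was not tested. In M the mt-Rnr1 level was 2516, 2037 and 1879 CPM in the KO vehicle samples L310, L319 and L322. It was 3657, 4202, 2994, 2964 and 3148 CPM in the KO CP2 samples L266, L291, L292, L298 and L299. Every CP2 sample was thus above every vehicle sample. The difference was 0.66 on the log2 scale (SE 0.13; adjusted p = 0.00295 by edgeR's quasi-likelihood test with Benjamini-Hochberg adjustment over all 25601 genes, used for all adjusted p-values here).

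mt-Rnr2, the larger ribosomal RNA, went the same way in M. It was at 3726, 3517 and 3830 CPM in KO vehicle samples L310, L319 and L322. It was at 5702, 6758, 4553, 4401 and 4733 CPM in KO CP2 samples L266, L291, L292, L298 and L299, again with no overlap. The log2 fold change was 0.50 (SE 0.13; adjusted p = 0.0161).

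The apocytochrome b mRNA also rose in M. mt-Cytb was at 6017, 6390 and 6465 CPM with vehicle and at 8373, 8814, 7232, 7377 and 7392 CPM with CP2, in the same order of samples. All 5 CP2 samples were higher than the 3 vehicle samples, with a log2 fold change of 0.32 (SE 0.10; adjusted p = 0.0442). For mt-Co1 the vehicle values were 14041, 16138 and 16915 CPM and the CP2 values 20555, 21279, 17495, 19169 and 17782 CPM. These did not overlap either, but the log2 fold change of 0.29 (SE 0.10) had an adjusted p of 0.0746.

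Thus 3 of 8 transcripts rose with CP2 in KO M, where 2.36% of all genes tested were called higher. The 4 abundant transcripts were higher without overlap, as were 6.63% of all genes. The low-count members mt-Co2, mt-Co3, mt-Atp6 and mt-Atp8 overlapped between the groups and had log2 fold changes of 0.39, 0.26, 0.13 and 0.49, none called. Without KO vehicle M L322 none of the 8 was called. Without KO vehicle M L310, KO vehicle M L319 or KO CP2 M L291 the call was left for mt-Rnr1 alone, at 0.79, 0.63 and 0.57. Over the 8 fits that left out 1 sample, mt-Rnr1 was called in 7, mt-Rnr2 in 4 and mt-Cytb in 1. Without KO CP2 M L266, mt-Rnr1 was at 0.63 (adjusted p = 0.0101), mt-Rnr2 at 0.47 (adjusted p = 0.0463) and mt-Cytb at 0.29 (adjusted p = 0.108).

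**Figure D2:**
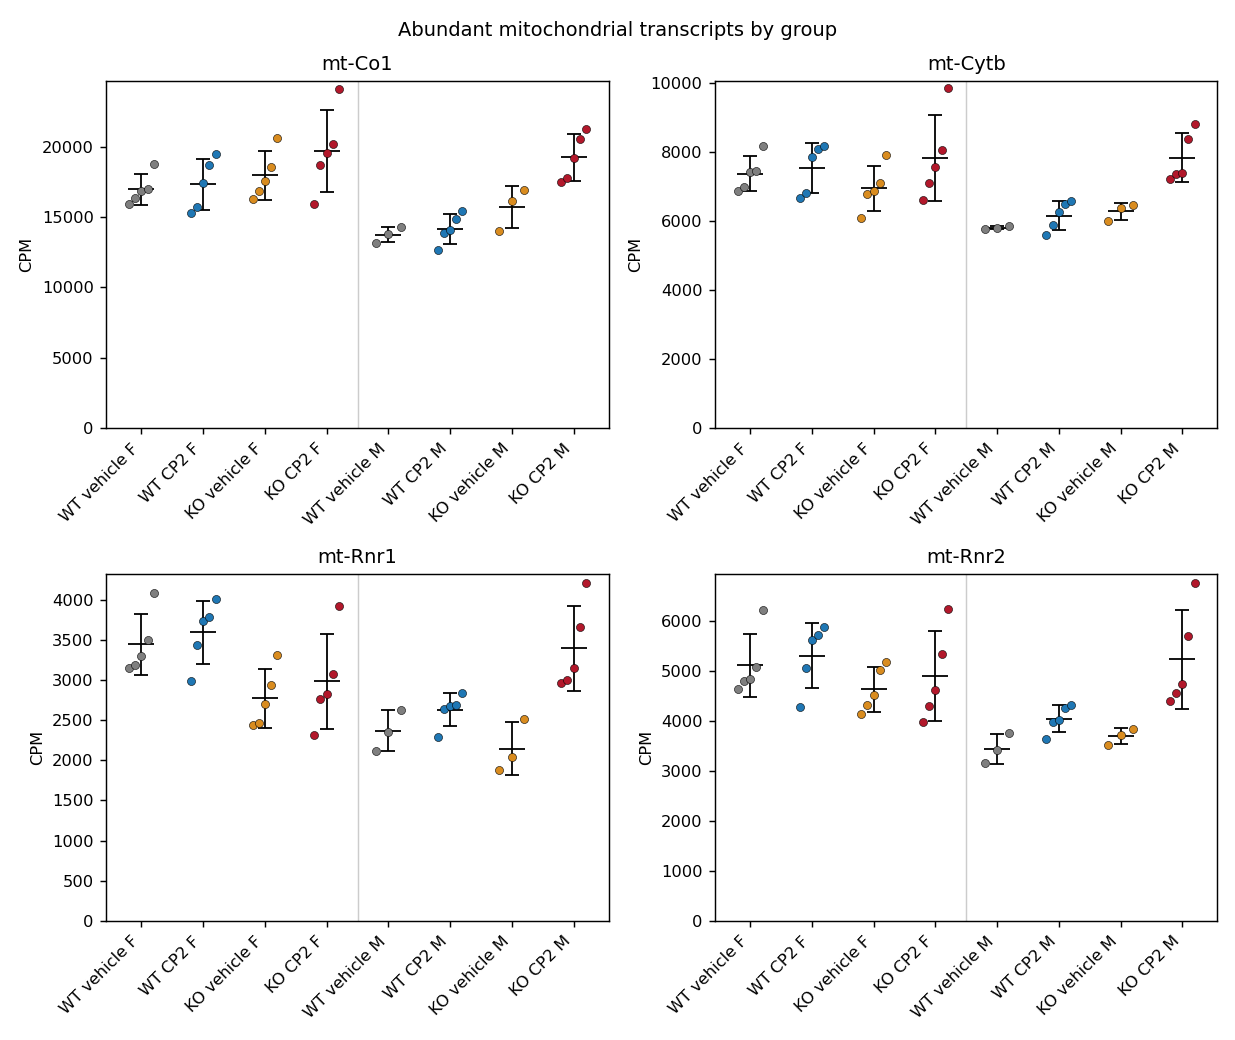
Levels of the 4 abundant transcripts in CPM, 1 point per sample, with the mean and SD of each group; F groups are left of the line and M groups right of it. In M, the 5 KO CP2 samples lie above all 3 KO vehicle samples in each panel, whereas in F the groups overlap.

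In F, CP2 and vehicle overlapped for all 8 transcripts in KO, where 1.04% of all genes did not overlap. By edgeR 0 of 8 were called, against 0.0859% of all genes. At an unadjusted p under 0.05 there were 2 of 8, mt-Cytb and mt-Atp6, against 11% of all genes, and DESeq2 called 0. mt-Rnr1 was at 2771 ± 364 CPM with vehicle and 2982 ± 593 CPM with CP2 (SD, n = 5 each), a log2 fold change of 0.11 (SE 0.11; adjusted p = 0.806). mt-Co1 was at 17958 ± 1716 CPM with vehicle and 19690 ± 2939 CPM with CP2, a log2 fold change of 0.13 (SE 0.09; adjusted p = 0.612). The CP2 group in F was widened by sample L233, at 24083 CPM of mt-Co1 where the other 4 were at 15942 to 20166. Without it the log2 fold changes in F were -0.01 for mt-Rnr1, -0.02 for mt-Rnr2, 0.08 for mt-Cytb and 0.05 for mt-Co1.

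The F and M responses of KO mice to CP2 were also compared directly. The response of mt-Rnr1 was smaller in F by 0.56 on the log2 scale (log2 difference -0.56, SE 0.18; adjusted p = 0.112), and that of mt-Rnr2 by 0.42 (-0.42, SE 0.17; adjusted p = 0.213). The response of none of the 8 was shown to differ between F and M by edgeR, against 0.691% of all genes. Both ribosomal RNAs passed an unadjusted p under 0.05, as 14.7% of all genes did, and DESeq2 called 1.

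Averaged over F and M, 3 of 8 transcripts rose with CP2 in KO, against 2.08% of all genes called higher. They were mt-Rnr1 (log2 fold change 0.38, SE 0.09; adjusted p = 0.0106), mt-Cytb (0.25, SE 0.06; adjusted p = 0.02) and mt-Rnr2 (0.29, SE 0.08; adjusted p = 0.0392). mt-Co1 was at 0.21 (SE 0.07; adjusted p = 0.053). The other 4 were at 0.21 for mt-Co3, 0.22 for mt-Co2, 0.34 for mt-Atp8 and 0.69 for mt-Atp6. The median of the 8 was 0.27, and that of all genes tested was 9.85e-05. The calls depended on single samples: without KO vehicle M L322 there were 0, and without KO vehicle M L310 there was 1. Over the 18 fits that left out 1 sample, mt-Rnr1 was called in 17, mt-Cytb in 16 and mt-Rnr2 in 8. Without KO CP2 F L233, mt-Rnr1 was at 0.32 (adjusted p = 0.018), mt-Cytb at 0.20 (adjusted p = 0.047) and mt-Rnr2 at 0.24 (adjusted p = 0.0808). Without KO CP2 M L266 they were at 0.37 (adjusted p = 0.0246), 0.23 (adjusted p = 0.0461) and 0.27 (adjusted p = 0.0822). The mt-Atp6 value fell to 0.11 without KO CP2 F L233.

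The same libraries differed in other ways. Reads that fell outside annotated genes made up 12.1% ± 0.886 in KO vehicle M (SD, n = 3) and 7.33% ± 1.40 in KO CP2 M (SD, n = 5). RNAs that stay in the nucleus (Malat1, Neat1, Meg3, Kcnq1ot1, Miat and Rian, 6 of 6 detected in all samples) summed to 5692 to 6144 CPM in KO vehicle M and to 1861 to 3467 CPM in KO CP2 M. Averaged over F and M, 1.84% of all genes were called lower with CP2 in KO and 2.08% higher. Of these 6 RNAs 4 fell in that average, by 0.90 for Meg3, 0.83 for Miat, 0.78 for Kcnq1ot1 and 0.24 for Rian on the log2 scale. Reads with several alignments were 4.44% ± 0.133 of reads in KO vehicle M and 5.19% ± 0.310 in KO CP2 M. Oligodendrocyte markers, 7 of 7 detected, summed to 8090 to 9528 CPM in KO vehicle M and 8458 to 15690.5 CPM in KO CP2 M, and 4 of 7 were called higher in KO with CP2 averaged over F and M. Microglia markers, 7 of 7 detected, summed to 309 to 371 CPM and 355 to 466.1 CPM, and 4 of 7 were called higher in that average. With the percentage of reads outside genes added as a covariate, none of the 8 was called for CP2 in KO, and the log2 fold changes averaged over F and M were 0.37 for mt-Rnr1, 0.34 for mt-Rnr2, 0.30 for mt-Cytb and 0.27 for mt-Co1. No gene at all was called for CP2 in KO in that fit. The part of these measures in the result was not tested. In bulk tissue a change in the number of cells and a change of RNA in each cell cannot be told apart.

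In WT mice none of the transcripts was called for CP2. By edgeR 0 of 8 were called in F, in M or averaged over both, against 0% of all genes in each case. DESeq2 also called 0 in each. Averaged over both, 0 of 8 had an unadjusted p under 0.05, against 4.03% of all genes, and in F 0 of 8 did, against 2.65%. In M, 1 of 8 did, against 3.04% of all genes. It was mt-Atp8, which was at 2.10, 2.37 and 1.20 CPM in WT vehicle samples L285, L300 and L303. In WT CP2 M it was at 2.43 to 3.52 CPM, without overlap, as 2.49% of all genes were. These levels rest on the lowest counts of the set. For mt-Rnr1 the averaged log2 fold change was 0.11 (SE 0.09), for mt-Rnr2 0.14 (SE 0.08), for mt-Cytb 0.06 (SE 0.06) and for mt-Co1 0.04 (SE 0.07). All 8 values were above 0 with a median of 0.12, where the median of all genes was 0.00553.

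Whether CP2 acted differently in KO and WT was tested as an interaction. By edgeR 0 of 8 were called, against 0.707% of all genes, and DESeq2 also called 0. At an unadjusted p under 0.05 there were 2 of 8, against 14.6% of all genes: mt-Rnr1 at 0.28 (SE 0.12; adjusted p = 0.277) and mt-Cytb at 0.19 (SE 0.09; adjusted p = 0.312). mt-Co1 was at 0.18 (SE 0.09; adjusted p = 0.374). A larger response of the 8 transcripts in KO than in WT was thus not shown.

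**Figure D3:**
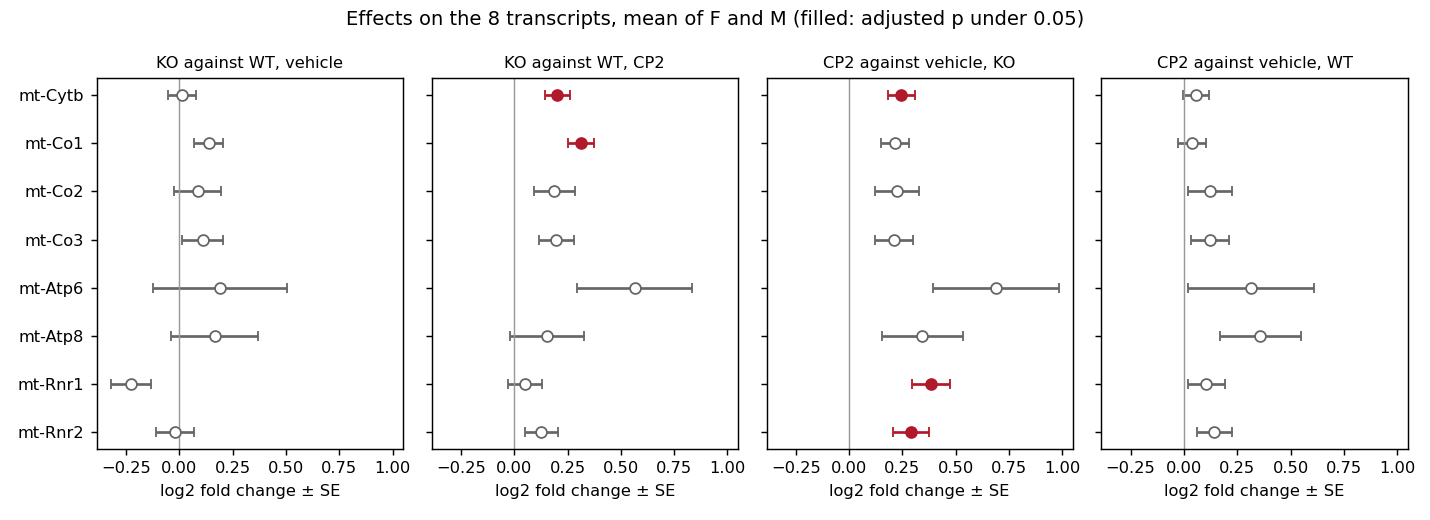
Log2 fold change with its SE for the 8 transcripts in 4 comparisons, each the mean of F and M; filled points have an adjusted p under 0.05. mt-Cytb and mt-Co1 are filled for KO against WT with CP2, mt-Cytb, mt-Rnr1 and mt-Rnr2 for CP2 in KO, and none for KO against WT with vehicle or CP2 in WT.

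Without CP2, no transcript was called between the genotypes. With vehicle, averaged over F and M, 0 of 8 differed between KO and WT by edgeR, against 6.67% of all genes, and DESeq2 also called 0. At an unadjusted p under 0.05 there was 1, against 21.6% of all genes. It was mt-Rnr1, with a log2 difference of -0.23 (SE 0.09; adjusted p = 0.136). In F, WT vehicle samples L252, L277, L278, L295 and L296 had 4081, 3500, 3183, 3303 and 3149 CPM of mt-Rnr1. KO vehicle samples L246, L279, L281, L282 and L283 had 2943, 2706, 2440, 2459 and 3309 CPM. Only KO L283 overlapped with the WT values, and the log2 difference was -0.31 (SE 0.11; adjusted p = 0.101). Within F 0 of 8 were called by edgeR, against 4.96% of all genes, and 1 of 8 had an unadjusted p under 0.05, against 20.3%. Without KO vehicle F L283 mt-Rnr1 was called lower, at -0.38 (adjusted p = 0.0422). Within M 0 of 8 were called by edgeR, against 0.516% of all genes, and 0 of 8 had an unadjusted p under 0.05, against 12.2%. DESeq2 called 0 in both. There mt-Cytb and mt-Atp6 were higher in all 3 KO vehicle samples than in the 3 WT samples, as were 10.5% of all genes. The averaged log2 differences of mt-Co1 and mt-Cytb were 0.14 (SE 0.07) and 0.01 (SE 0.07).

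Among CP2-treated mice, mt-Co1 and mt-Cytb were called higher in KO in the average of F and M, and within M but not within F. Averaged over F and M, 2 of 8 were called, mt-Co1 at 0.31 (SE 0.06; adjusted p = 0.000432) and mt-Cytb at 0.20 (SE 0.06; adjusted p = 0.0181), against 5.54% of all genes called higher. Without KO CP2 F L233 mt-Co1 was at 0.27 (adjusted p = 0.00121) and mt-Cytb at 0.15 (adjusted p = 0.0523). Without KO CP2 M L266 they were at 0.30 (adjusted p = 0.00119) and 0.19 (adjusted p = 0.037). mt-Atp6 had the largest value, 0.56 (SE 0.27; adjusted p = 0.19), and was at -0.01 without that sample. The median of the 8 was 0.19, and that of all genes 0.0119. The KO CP2 samples are the same as in the comparison with vehicle, so the results of both are not independent.

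Within M, the 4 abundant transcripts of KO and WT did not overlap. WT CP2 samples L259, L262, L263, L267 and L289 had 13835, 14868, 14052, 12624 and 15442 CPM of mt-Co1, all below the KO CP2 M values of 17495 to 21279 CPM. The log2 difference was 0.44 (SE 0.09; adjusted p = 0.000537). mt-Cytb was at 5894, 6509, 6265, 5591 and 6578 CPM in the same WT samples and at 7232 to 8814 CPM in KO, a log2 difference of 0.35 (SE 0.08; adjusted p = 0.00473). mt-Rnr1 was at 2286 to 2841 CPM in WT CP2 M and 2964 to 4202 CPM in KO CP2 M (0.37, SE 0.11; adjusted p = 0.0334). mt-Rnr2 was at 3637 to 4318 CPM and 4401 to 6758 CPM (0.37, SE 0.11; adjusted p = 0.0238). No KO sample overlapped with a WT sample for these 4 transcripts, as held for 4.76% of all genes tested.

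mt-Co2 was also called in M, although its groups overlapped, at 11.8 to 18.7 CPM in WT CP2 and 16.5 to 24.2 CPM in KO CP2 (0.42, SE 0.13; adjusted p = 0.0409). In all, 5 of 8 transcripts were called higher, against 4.76% of all genes. mt-Co3, mt-Atp6 and mt-Atp8 were at 0.30, 0.13 and 0.33 and were not called. Without KO CP2 M L266, the library that stood apart, 2 of 8 were called, and likewise without KO CP2 M L291 or WT CP2 M L289, while 3 were without WT CP2 M L262. Over the 10 fits that left out 1 sample, mt-Co1 and mt-Cytb were called in 10, mt-Rnr2 in 7, mt-Rnr1 in 5 and mt-Co2 in 3. Without KO CP2 M L266 mt-Co1 was at 0.42 (adjusted p = 0.00268), mt-Cytb at 0.32 (adjusted p = 0.0176), mt-Co2 at 0.37 (adjusted p = 0.11), mt-Rnr1 at 0.34 (adjusted p = 0.0805) and mt-Rnr2 at 0.34 (adjusted p = 0.0666). The RNAs that stay in the nucleus summed to 4456 to 6188 CPM in WT CP2 M against 1861 to 3467 CPM in KO CP2 M, and reads outside genes were 11.5% ± 1.64 against 7.33% ± 1.40 (SD, n = 5 each). Microglia markers summed to 280 to 351 CPM in WT CP2 M against 355 to 466.1 CPM in KO CP2 M, and astrocyte markers, 7 of 7 detected, to 4205 to 5016 CPM against 5155 to 6187 CPM, neither with overlap. In this comparison 5 of 7 microglia, 2 of 7 astrocyte and 1 of 7 oligodendrocyte markers were called higher. The part of these measures in the difference was not tested. With reads outside genes as a covariate, mt-Co1 was at 0.52 (adjusted p = 0.00403) and mt-Cytb at 0.42 (adjusted p = 0.0155), and the other 6 were not called.

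In F, 0 of 8 differed between KO and WT with CP2 by edgeR, against 2% of all genes, and 3 of 8 passed an unadjusted p under 0.05, against 15.7%. DESeq2 called 0. mt-Co1 was at 0.19 (SE 0.09; adjusted p = 0.273) and mt-Cytb at 0.06 (SE 0.08; adjusted p = 0.799). mt-Rnr1 was on the other side at -0.27 (SE 0.11; adjusted p = 0.229). mt-Atp6 was at 1.0002 (SE 0.38; adjusted p = 0.177), and at -0.14 without KO CP2 F L233.

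The single mt-Atp6 value of KO CP2 F L233 stood far outside. This sample had 94.5 CPM from 4404 counts, while the other 4 of its group had 9.64 to 15.5 CPM and the highest of all other samples, WT CP2 F L311, had 19.6 CPM. Its nuclear copy Gm10925 was at 23.9 CPM in the same library, near the values elsewhere of 11.1 to 22.5 CPM. mt-Atp8, which shares its mRNA with mt-Atp6, was at 2.77 CPM there, in the middle of its group. In the same library 5.91% of reads had several alignments, the highest share of the 36. Its mt-Co3 level of 26.4 CPM was also the highest.

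**Figure D4:**
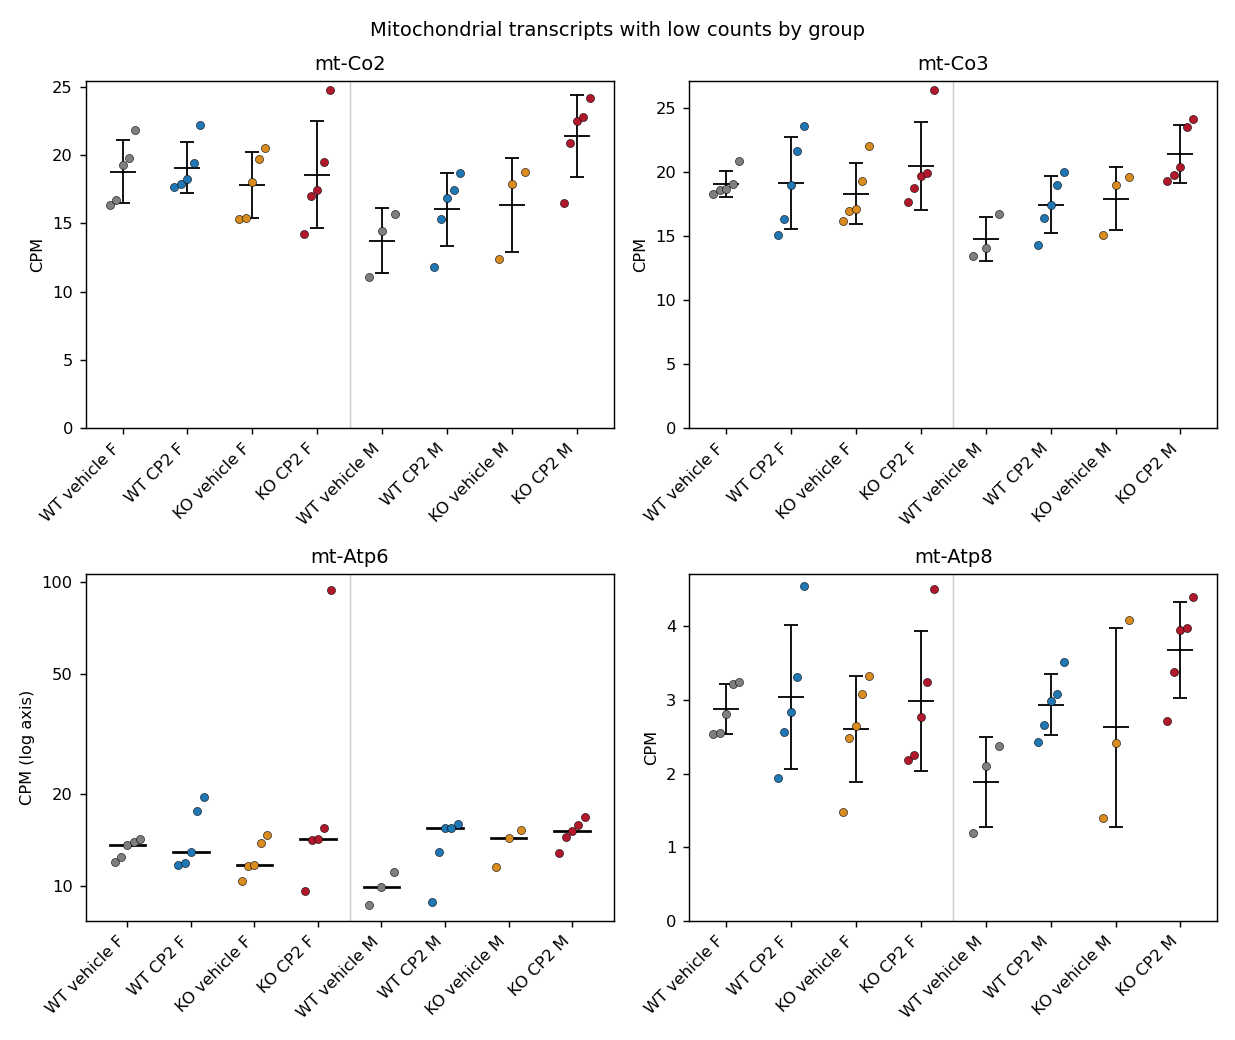
Levels of the 4 transcripts with low counts in CPM, 1 point per sample. Bars are means with SD, except for mt-Atp6, which is on a log axis with group medians; there KO CP2 F L233 lies at 94.5 CPM and all other samples at 19.6 CPM or lower.

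The levels of the 8 groups formed a continuous order for each transcript. mt-Co1 rose from 13745 ± 548 CPM in WT vehicle M (SD, n = 3) through 14164 ± 1075 in WT CP2 M, 15698 ± 1487 in KO vehicle M, 16964 ± 1106 in WT vehicle F, 17319 ± 1815 in WT CP2 F and 17958 ± 1716 in KO vehicle F to 19256 ± 1663 in KO CP2 M and 19690 ± 2939 in KO CP2 F. Neighbours in this order overlapped in range throughout. mt-Cytb followed a similar order, from 5819 ± 51.3 CPM in WT vehicle M to 7838 ± 710.02 in KO CP2 M and 7845 ± 1247 in KO CP2 F. The ribosomal RNAs had another order. mt-Rnr1 was lowest in KO vehicle M at 2144 ± 331 CPM and highest in WT CP2 F at 3592 ± 392. mt-Rnr2 was lowest in WT vehicle M at 3441 ± 295.2 CPM and highest in WT CP2 F at 5305 ± 656, and KO CP2 M was next to it at 5229 ± 994. Among the others, mt-Co2 ran from 13.7 ± 2.38 CPM in WT vehicle M to 21.4 ± 2.99 in KO CP2 M, mt-Co3 from 14.8 ± 1.72 to 21.4 ± 2.26 and mt-Atp8 from 1.89 ± 0.613 to 3.68 ± 0.652 in the same groups.

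M samples had less of the abundant transcripts. Averaged over the 4 genotype and treatment groups, 4 of 8 were lower in M than in F, against 4.61% of all genes called lower. The log2 differences were -0.20 for mt-Co1 (SE 0.05; adjusted p = 0.00288), -0.19 for mt-Cytb (SE 0.04; adjusted p = 0.00342), -0.29 for mt-Rnr1 (SE 0.06; adjusted p = 0.00179) and -0.30 for mt-Rnr2 (SE 0.06; adjusted p = 0.000912). These 4 were called in all 36 fits that left out 1 sample. KO CP2 M was the exception, with mt-Rnr1 at 3393 ± 531 CPM against 2982 ± 593 in KO CP2 F, and this difference between the 2 groups was not tested. Reads outside genes were 5.995% ± 0.740 in WT vehicle F and 10.2% ± 1.23 in WT vehicle M, and none of the 8 was called between M and F with that percentage as a covariate. Any batch that goes with the letter cannot be told apart from it.

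Ratios between 2 transcripts of a library do not depend on how libraries are scaled. They were chosen after values had been seen and are given without a test. mt-Co1 stood at 2.51 ± 0.0970 times mt-Cytb in KO (SD, n = 18; 2.33 to 2.66) and at 2.31 ± 0.0530 times in WT (n = 18; 2.21 to 2.43). KO samples were above WT samples without overlap in F with vehicle, in F with CP2 and in M with CP2, and overlapped in M with vehicle. The ribosomal RNAs shifted against each other too. The ratio of mt-Rnr1 to mt-Rnr2 was 0.598 ± 0.0387 in KO vehicle F against 0.675 ± 0.0140 in WT vehicle F, and 0.609 ± 0.0335 in KO CP2 F against 0.678 ± 0.0154 in WT CP2 F (SD, n = 5 each), without overlap in either. In M it was 0.582 ± 0.0923 in KO vehicle against 0.687 ± 0.0145 in WT vehicle (SD, n = 3 each), with overlap. With CP2 it was 0.652 ± 0.0206 in KO and 0.650 ± 0.0203 in WT (SD, n = 5 each), also with overlap.

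A complex I mRNA set against mt-Co1 separated the genotypes in all 4 pairs of groups. The ratio of mt-Nd2 to mt-Co1 was 0.132 to 0.174 in the 18 KO samples and 0.197 to 0.232 in the 18 WT samples. Other ratios separated them less. That of mt-Nd5 to mt-Cytb was higher in KO without overlap with vehicle in F and in M, and overlapped with CP2 in both. That of both ribosomal RNAs to mt-Co1 plus mt-Cytb was lower in KO without overlap in F with vehicle and with CP2, and overlapped in M. How often other pairs of genes separate the genotypes was not counted. mt-Nd2 itself was lower in KO with vehicle (log2 difference -0.37, SE 0.08; adjusted p = 0.0039), the 1 complex I mRNA of 7 that was called there. With CP2 it was at -0.13 (SE 0.07; adjusted p = 0.223), while mt-Nd5 and mt-Nd6 were higher in KO by 0.38 and 0.48. mt-Nd2 and mt-Co1 are neighbours on mitochondrial DNA and are read from the same strand. Both have a copy on chromosome 2. That of mt-Nd2 is Gm13339, at 96.7% identity over 510 of the gene's 1038 bases. The part of such copies in the ratio of mt-Nd2 to mt-Co1 was not tested.

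**Figure D5:**
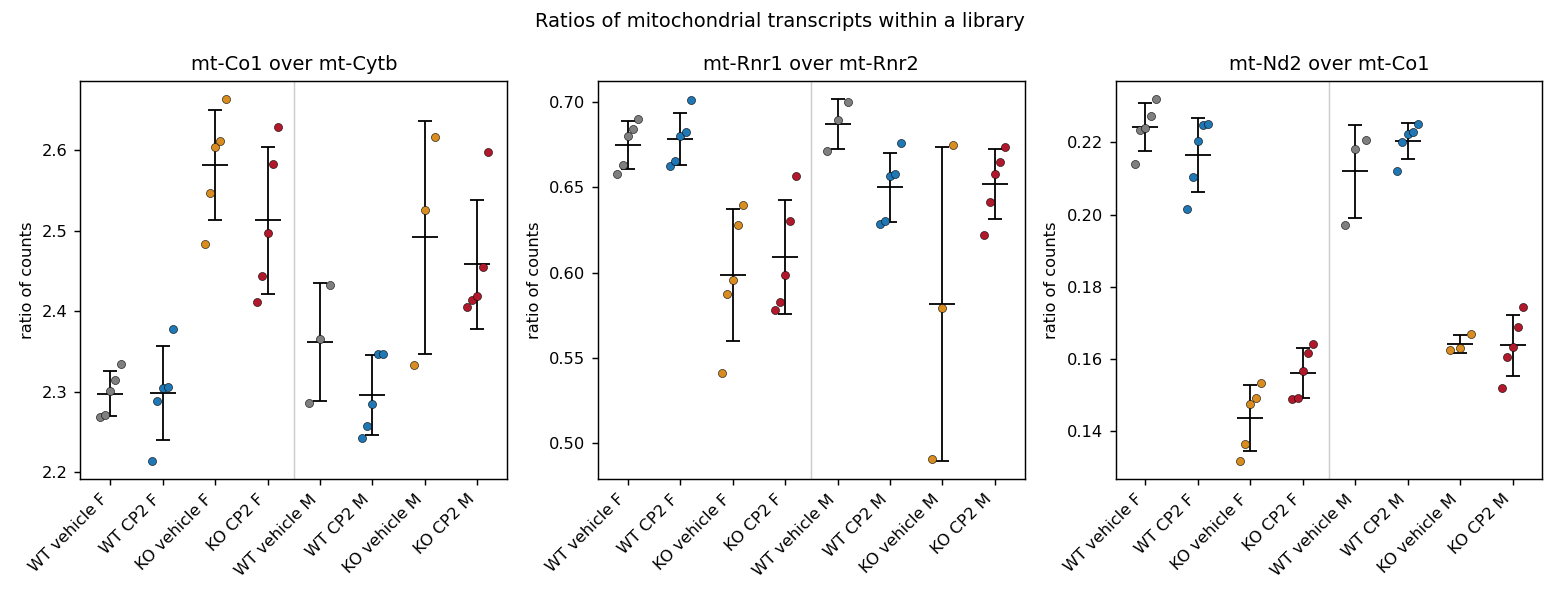
Ratios of counts within a library, 1 point per sample with group mean and SD; axes do not start at 0. mt-Co1 over mt-Cytb is higher in KO on average, mt-Rnr1 over mt-Rnr2 is lower without overlap in KO F, and mt-Nd2 over mt-Co1 is at most 0.174 in KO and at least 0.197 in WT samples.

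Nuclear subunits of the same complexes were also called higher in KO mice with CP2, where 2.08% of all genes were. Averaged over F and M, 2 of 9 nuclear subunits of complex III were called higher: Uqcrh, the hinge protein (log2 fold change 0.28), and Uqcrfs1, the Rieske iron-sulfur protein (0.19). In complex IV 6 of 15 were higher, among them Cox7b (0.31), Cox6a1 (0.27), Cox6b1 (0.25) and Cox4i1 (0.24), which surround the mitochondrial core. In complex V 6 of 18 were higher, among them Atp5mpl (0.44), Usmg5 (0.33), Atp5l (0.32) and Atp5j2 (0.27), small subunits of its membrane part. The 18, and the 6, include the inhibitory factor of complex V, which is counted as a subunit here and below. None of these subunits was called lower. The medians were 0.26, 0.23 and 0.18, near the 0.27 of the 8 transcripts. In complex I, 2 of 7 mitochondrial mRNAs rose, mt-Nd2 (0.27) and mt-Nd4 (0.24). The calls of this comparison depended on the samples and on the fit. All samples gave 1002 called genes, and the 18 fits that each left out a sample gave 190 to 1534. With the percentage of reads outside genes as a covariate, no gene was called. Subunit calls are given with all samples only, so how many of them hold in those fits is not shown.

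None of the listed genes that make, process or modify mitochondrial RNA was called higher with CP2 in KO. Of all genes, 1.84% were called lower and 2.08% higher. Of 15 genes for transcription and replication of mitochondrial DNA, 1 fell, Polg, the replicative polymerase (-0.22, SE 0.05; adjusted p = 0.0155), and none rose. Of 22 genes for processing and stability of mitochondrial RNA none was called. Of 8 genes that modify or assemble the ribosomal RNAs 1 fell, Mettl17, needed for the small subunit (-0.37, SE 0.11; adjusted p = 0.045). Of 27 tested assembly factors for complexes III, IV and V, 3 rose: Cox16 (0.50), Coa3 (0.24) and Coa5 (0.20), all of complex IV. The limits given for the subunit calls hold for these calls too.

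KO and WT were also compared for these nuclear genes. With vehicle, 3.8% of all genes were called lower in KO and 2.87% higher. Lower were 1 of 9 complex III, 3 of 15 complex IV and 2 of 18 complex V subunits, 2 of 22 genes for RNA processing and stability and 7 of 27 assembly factors, and none of these was higher. With CP2, 6.07% of all genes were called lower and 5.54% higher. Of the subunits 0 of 9, 2 of 15 and 3 of 18 were higher, and 1 of 15, Cox6a2, was lower (-0.45), as it was with vehicle (-0.54). The higher complex IV subunits were Cox4i1 (0.27) and Cox6a1 (0.23), and those of complex V were Atp5g2 (0.22), Atp5c1 (0.16) and Atp5a1 (0.14). With CP2, Polg was lower in KO (-0.38), as were Fastkd2 (-0.36), Pnpt1 (-0.25) and Rexo2 (-0.17) of the 22 genes for RNA processing and stability. Fastkd2 (-0.34) and Rexo2 (-0.31) were called lower in KO with vehicle too. Fastkd2 binds mt-Rnr2, and Pnpt1 and Rexo2 degrade mitochondrial RNA. Among assembly factors Surf1 was higher with CP2 (0.24), and Bcs1l (-0.31) and Ttc19 (-0.15) were lower, Bcs1l also with vehicle (-0.55). By the interaction test, 1 of 9, 0 of 15 and 0 of 18 subunits of complexes III, IV and V were called, against 0.707% of all genes. These comparisons share samples with each other and are not independent.

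Across the 36 samples the 8 transcripts varied together to different degrees. As a description, with the groups included, the mitochondrial genes most like mt-Co1 were mt-Nd5 and mt-Nd6 (Pearson correlation of log2 CPM 0.96 each). mt-Nd6 lies on the minus strand, and whether the counts respect the strand is not given. Those most like mt-Cytb were mt-Nd1 and mt-Co1 (0.93 each). mt-Rnr1 and mt-Rnr2 were most like each other (0.92). mt-Co2 was closest to mt-Co3 (0.80), and mt-Co3 to mt-Co2 and mt-Cytb (0.80 each). mt-Atp6 was closest to mt-Co3 (0.73) and mt-Atp8 to mt-Co2 (0.68). All points share their library and its depth. Outside mitochondrial DNA, 15392 genes were compared with the mean of the 8. Most like it were Hsd17b11 (0.73), a steroid dehydrogenase, and Hnmt (0.73), which inactivates histamine. Next were Rpl26 (0.70), a ribosomal protein, Sh3bgrl (0.70), and Acbd5 (0.69), a peroxisomal membrane protein. Each of the 8 has equal weight in that mean, also the low-count members and the mt-Atp6 value of KO CP2 F L233. The order without these was not tested.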

How the data were processed

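Brain RNA was isolated by a Trizol method and Illumina libraries were made from its polyadenylated fraction, per the labels' protocols. The submitters' processing notes name STAR, HTSeq and GRCm39. Versions, the annotation release and strandedness are not given in the sources used here. The deposited table holds raw counts per gene for 36 samples, and its 5 summary rows were kept apart from the gene counts: reads outside genes were 5.09% to 13.2% of reads and reads with several alignments 4.05% to 5.91%. Gene symbols came from GENCODE M21 and matched 52073 of 56980 identifiers (91.4%). Its transcripts were searched with BLAST 2.17.0.

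Counts were fitted with edgeR 4.0.16 in R 4.3.3 (filterByExpr, TMM scaling, quasi-likelihood test, a coefficient for each of 8 groups, 16 contrasts, averages weighting F and M equally). Calls were made at a Benjamini-Hochberg adjusted p under 0.05. The code was tested on simulated data. DESeq2 1.42.0, other scalings, filters, covariates and samples left out in turn were the alternatives. Summing each transcript with its near-identical nuclear copies (at least 95% identity) was chosen after seeing the data. CPM and log2 CPM (prior count 2) used TMM library sizes. No pair of samples within a group agreed within sampling noise (mean chi-square per gene 13.0 to 142 over 66 pairs).

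The 8 transcripts and all gene lists were chosen with earlier results of these data known. Named were the 8 transcripts, the 7 complex I mRNAs, Ndufs4, at most 4 called genes per list and comparison, the 5 genes most correlated with the mean of the 8, and nuclear copies where needed.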

Additional observations from a re-analysis of the deposited data

Results flagged for a closer look

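Of 48 combinations of transcript and group with 5 samples, 3 held a sample far from the others by Dixon's criterion, where chance alone gives about 5%. mt-Atp6 in KO CP2 F was at 94.5 CPM in sample L233, against 9.64 to 15.5 CPM in the other 4. mt-Co3 in KO CP2 F was at 26.4 CPM in the same sample, against 17.7 to 19.9 CPM. mt-Rnr2 in WT vehicle F was at 6205 CPM in sample L252, against 4630 to 5071 CPM.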

How the results depend on the processing

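Of the 8 transcripts, 3 rose with CP2 in KO averaged over F and M. This count was 1 with library totals and with a hippocampal CA marker score as a covariate. It was 0 with the percentage of reads outside genes or the title number as a covariate, and 0 when only the groups compared were fitted. Leaving out 1 sample at a time gave 0 to 4. The 3 called in M were 0 with reads outside genes as a covariate and 1 with the title number, and 0 to 3 with 1 sample left out. For KO against WT with CP2 in M, 5 were called, but 2 with library totals, 3 without a filter on low counts, 2 with reads outside genes as a covariate, and 2 to 5 with 1 sample left out. Averaged over F and M the count was 1 to 3 with 1 sample left out, and with vehicle in F it was 0 to 1. The 4 called lower in M than F were 0 with reads outside genes or the title number as a covariate. For the F minus M difference of CP2 in KO, 0 became 2 with the CA score and 1 by DESeq2. With counts summed with nuclear copies, chosen after seeing the data, no count moved by over 1.5 times. The cause of these changes was not tested.

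Some values changed sign. With reads outside genes as a covariate, mt-Cytb was at -0.033 for KO against WT with vehicle, and mt-Atp8 at 0.085 for M against F. With the CA score, mt-Rnr2 was at 0.020 for KO against WT with vehicle, and mt-Rnr1 and mt-Rnr2 at -0.14 and -0.14 for CP2 in KO F. With the title number, mt-Atp8 was at 0.053 for the interaction, mt-Atp6 at -0.033 for KO against WT with CP2 in M, and mt-Rnr2 at -0.015 for CP2 in KO F. With 1 sample left out, KO against WT with CP2 averaged over F and M ran from -0.0070 to 0.67 for mt-Atp6 and from -0.0096 to 0.093 for mt-Rnr1. In F it ran from -0.14 to 1.22 for mt-Atp6 and from -0.036 to 0.11 for mt-Cytb. The interaction ran from -0.20 to 0.48 for mt-Atp6 and from -0.17 to 0.22 for mt-Atp8. CP2 in KO F ran from -0.013 to 0.18 for mt-Rnr1 and from -0.022 to 0.15 for mt-Rnr2. KO against WT with vehicle ran from -0.0063 to 0.040 for mt-Cytb, from -0.048 to 0.024 for mt-Rnr2 and from -0.065 to 0.32 for mt-Atp8.

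No paired analysis was possible because no title number occurs in more than 1 group. Depth limits mt-Atp8 most, with 62 to 342 counts a sample.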
